A study of Homo sapiens with 6 samples.

Results

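The regions described are the openings of coding sequences, the stretch a ribosome crosses just after it starts. In the deposited ribosome profiling tables each coding sequence is split into 200 bins, and its opening 20 bins, called the 5′ window, were taken for every RefSeq messenger transcript present in all 3 tables. There were 17641 such regions, of 20708 transcripts present in any table. Of them 17456 carried a gene name, for 9574 genes, and 3977 genes had more than 1 transcript. A minimum on coding depth kept 12821 regions and left out 4820. With 1 transcript per gene, that of the highest mean coding depth, 7089 genes remained.

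Ribosome profiling sequences the short messenger fragments that a translating ribosome shields from nuclease, so the depth of these footprints along a coding sequence shows where ribosomes stood. Ribosomes assemble at the start codon, then build the first residues of the chain inside the exit tunnel before chaperones and targeting factors can reach them. Depth at a position depends on how often ribosomes load, how fast they move and whether they leave early, and footprint depth alone does not separate these.

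All samples came from the established human melanoma line CHL-1, grown in DMEM with serum. The parental group was untreated. A CRISPR group was edited at SNORD50A/B, a pair of small nucleolar RNA genes; no control-edited line is among the samples, and whether the edited cells are 1 clone is not stated. The last group received 10 mM AZC together with 20 µM MG132 for 20 minutes. AZC is an analog of proline that enters proteins and disturbs their folding, MG132 inhibits the proteasome, and effects of the 2 agents cannot be told apart. Cycloheximide, which arrests moving ribosomes, was in the lysis buffer of every group.

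Each group had 2 libraries, 1 of them labelled as rRNA removed, and 1 table in which they cannot be told apart. No spread between replicates exists, so no p-value is given and every difference is between single tables. Depth summed over a table, counted in 1000000 bases, came to 473.7 for parental, 586.4 for edited and 367.3 for treated cells. Isolated patches of depth that could be read as identical stretches of 25 to 33 bases were taken as piles of 1 footprint. Other patches were left out. The piles had a median length of 28 bases, a value that the reading rule favoured, so it is not a result. Their median height was 3 copies in parental (interquartile range 2 to 4), 8 in edited (5 to 11) and 3 in treated cells (2 to 4). A given depth in the table of edited cells therefore rested on fewer distinct fragments. With evenly spread depth, a gene at the minimum would hold 3.06 piles of median height in its 5′ window in parental, 1.31 in edited and 2.27 in treated cells. As a check on the cell type, SOX10, S100B and S100A1 of 12 melanocyte markers were above the minimum. MITF, DCT and RAB27A were below it, MLANA was listed at 0 coding depth in all 3 tables, and PMEL, TYR, TYRP1, GPR143 and SLC45A2 had no transcript in all 3. Of markers of keratinocytes, leukocytes and endothelium none was above the minimum, with KRT10 below it and LYZ at 0.

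Mean depth in the 5′ window was divided by the mean over all 200 coding bins, a ratio called the 5′ share, so that 1 means an even spread. Parental cells had a median 5′ share of 0.92 (interquartile range over genes 0.62 to 1.28), edited cells one of 0.95 (0.55 to 1.45) and treated cells one of 1.42 (0.93 to 1.95). Summed over all 17641 regions, the 5′ window held 9.90% of coding depth in parental, 11.1% in edited and 15.4% in treated cells. A share above 2 was seen in 390 genes of parental, 786 of edited and 1651 of treated cells, and a share below 0.5 in 1227, 1611 and 729 genes. The edited cells thus had more genes at both ends of the range than the parental cells, whereas the treated cells had more at the upper end and fewer at the lower end.

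**Figure D1:**
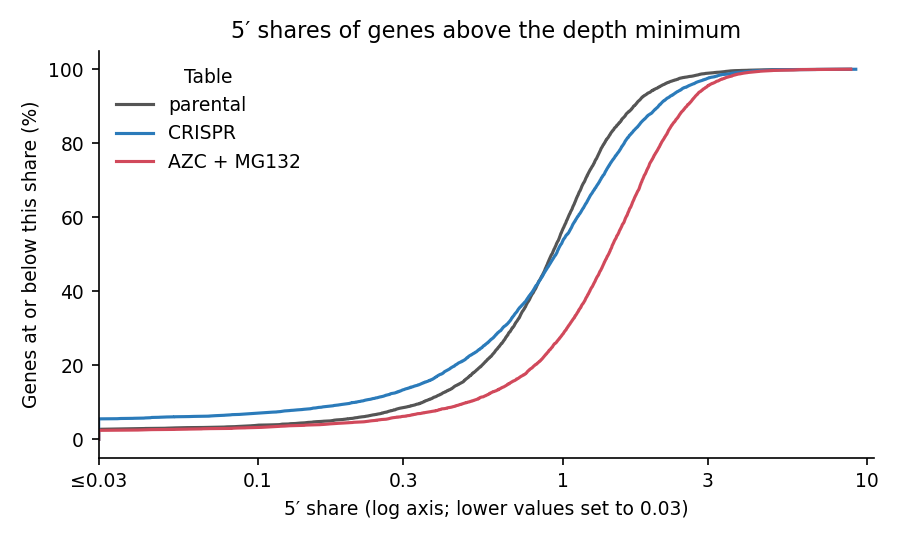
Cumulative percentage of the 7089 genes (vertical axis) at or below each 5′ share (horizontal log axis, lower values set to 0.03), with 1 line per table. The AZC + MG132 line lies to the right, with its middle at 1.42, while the parental and CRISPR lines cross near their medians of 0.92 and 0.95 and the CRISPR line is the flatter one.

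Within the window, depth was highest at the start codon end in all 3 tables. Mean depth scaled to each gene's coding mean was 1.15 in bins 1 to 5, 0.96 in bins 6 to 10, 0.94 in bins 11 to 15 and 0.95 in bins 16 to 20 in parental cells. Edited cells had 1.35, 1.03, 0.96 and 0.97. In treated cells all 4 groups of bins were above the parental ones, at 1.94, 1.43, 1.34 and 1.26. The difference between treated and parental cells was thus not confined to the bins next to the start codon, and it went past the window: coding bins 21 to 40 had a median scaled depth of 1.10 in treated and 0.93 in parental cells. Covered bins made up 80.7% of the 5′ window and 84.1% of the remaining 180 bins in parental cells, 64.3% and 67.2% in edited cells, and 79.9% and 75.9% in treated cells, the only table with the higher coverage in the 5′ window.

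**Figure D2:**
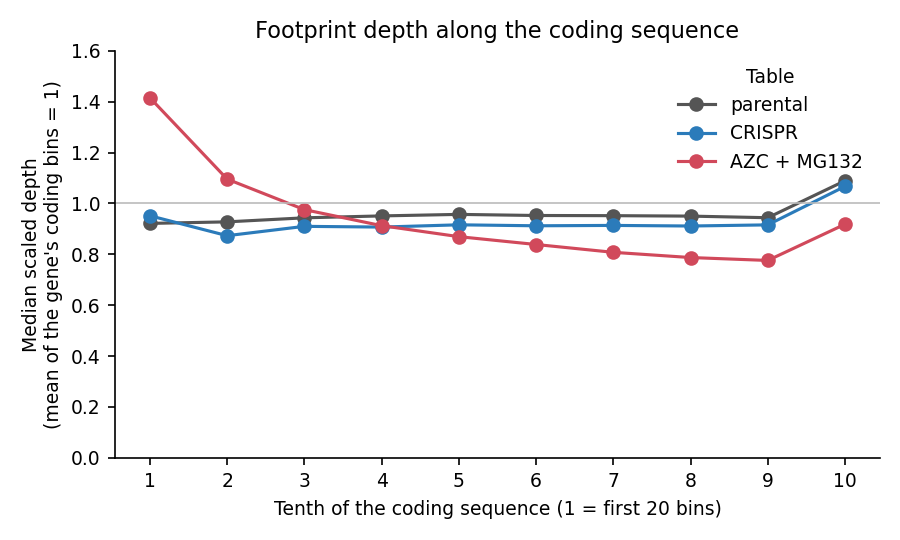
Median over 7089 genes of depth scaled to each gene's mean over its coding sequence (vertical axis), in 10 successive windows of 20 bins (horizontal axis), with 1 line per table. The AZC + MG132 line falls from 1.42 in window 1 to 0.78 in window 9, while the parental line stays between 0.92 and 1.09.

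Treated and parental cells were compared to see whether depth near the start differed after the short treatment. The 5′ shift of a gene, the log2 ratio of its 5′ shares, had a median of 0.61 (interquartile range over genes 0.13 to 1.05), and 79.6% of 7089 genes were above 0. Past a 2-fold limit, which is one of size and not a test, 1916 genes had a higher 5′ share (27.0% of those compared) and 326 a lower one (4.60%). Among 3173 deeply covered genes, with at least 4 times the minimum and 100 covered coding bins in each table, the median was 0.66 and 88.4% were above 0. There 768 genes (24.2%) had a 2-fold higher and 35 (1.10%) a 2-fold lower share. At greater depth the lower group shrank to a smaller part of the genes, while the higher group changed little.

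The ratio of treated to parental mean scaled depth fell step by step along the coding sequence, from 1.49 in the 5′ window to 1.20, 1.06, 0.98, 0.93, 0.91, 0.88, 0.86, 0.85 and 0.86 in the 9 windows of 20 bins after it. To place this in codons, coding length was estimated from the number of bins that a pile of one footprint spans, which was possible for 3415 of 7089 genes, mostly ones of lower depth (median normalised coding depth 14.5 against 44.4 for the others, per 1000000 of the table total). Their 5′ window had a median of 65.5 codons (45.6 to 100.1). Over 1960 genes of 400 to 1000 codons the ratio was 1.63 in codons 1 to 20, 1.5 in codons 21 to 40, 1.37 in codons 41 to 60, 1.26 in codons 61 to 80 and 1.14 in codons 81 to 120. It was 1.03 after codon 120 up to codon 200 and 0.92 in codons 201 to 400. In codons 1 to 20 the treated table was higher in 66.5% of these genes, and in codons 201 to 400 in 37.4%.

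Coding sequences of different length showed this gradient at different heights. In codons 1 to 50 the ratio was 1.39 for the 583 genes of 200 to 400 codons, 1.5 for 894 genes of 400 to 600, 1.55 for 1062 genes of 600 to 1000 and 1.53 for 689 genes of 1000 to 2000. After codon 100 up to codon 200 it was 0.95, 1.02, 1.07 and 1.17 in the same order. The longest genes thus kept a ratio above 1 for more codons than the shortest. Each gene is scaled to its own coding mean, and a start region takes up more of a short coding sequence, so part of this order is built into the measure. Since under 80% of genes have a length, a check over all genes is void and these values describe the genes with one, whose median shift of 0.54 was below the 0.64 of genes without one.

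**Figure D3:**
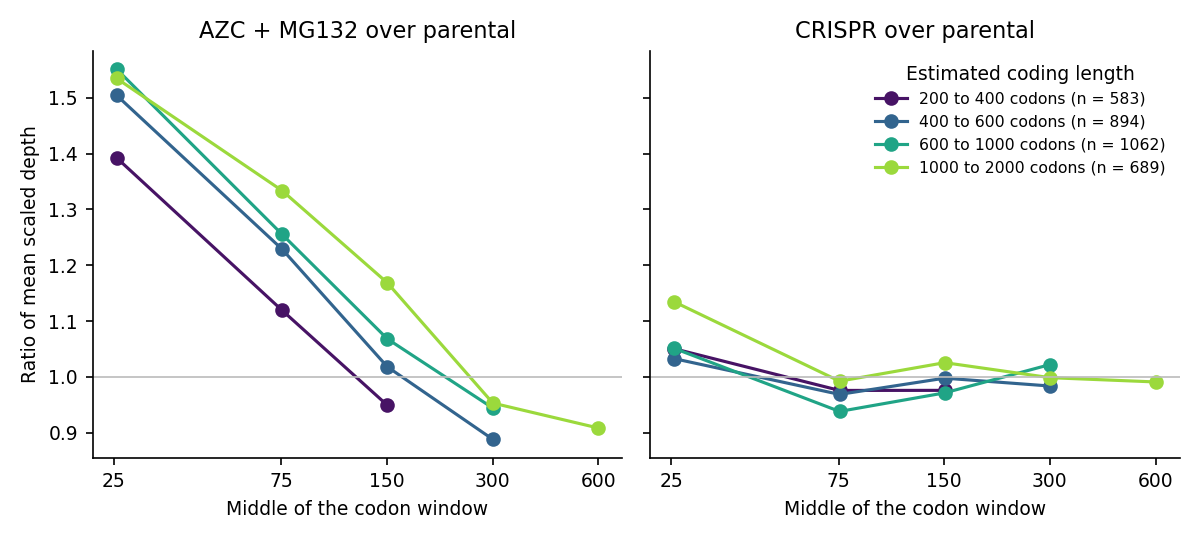
Ratio of mean scaled depth to the parental table (vertical axis) by the middle of a codon window (horizontal axis, log scale), for AZC + MG132 on the left and CRISPR on the right, with 1 line per class of estimated coding length. On the left the 4 lines start between 1.39 and 1.55 and fall; on the right they lie between 0.94 and 1.13.

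A higher 5′ share can come from more depth near the start or from less depth after it. Taken as depth per 1000000 of the table total, the 5′ window was above the parental level by a median log2 ratio of 0.45 and the remaining coding bins were below it by a median of -0.25. The whole coding depth of the median gene was itself at -0.16 on this scale, and with both scaled to the median gene the values were 0.60 and -0.09. On the first scale 3448 of 7089 genes were higher in the 5′ window and lower in the rest, 1537 were higher in both, 1725 lower in both, and 379 lower in the 5′ window and higher in the rest. Among the 768 deeply covered genes with a 2-fold higher share the medians were 1.17 and -0.30; these genes were chosen by that ratio, which favours a high value in the smaller window. Such depths combine the amount of messenger with the ribosomes on it, and fewer cells of a kind and less RNA per cell cannot be told apart.

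The leader in front of the start codon had a median above the parental level whether the 5′ share was higher, similar or lower. Among deeply covered genes with a 5′ UTR depth of at least 200 in both tables, those with a 2-fold higher 5′ share (611) had a median log2 ratio of 1.05 in the 5′ UTR, those within 2-fold (2032) one of 0.79 and those with a 2-fold lower share (20) one of 0.49. In the same order the 5′ window had medians of 1.17, 0.37 and -1.87, and the groups were formed from that window. In the group with a lower share the leader was thus higher while the 5′ window was lower. How far the 5′ UTR and the opening bins of the coding sequence share footprints at their border was not tested.

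Abundant housekeeping messengers, read at high depth, gave the change gene by gene. EEF2, the elongation factor that moves the ribosome along by 1 codon, had 5′ shares of 1.07 in parental, 1.15 in edited and 2.35 in treated cells. ACTB, cytoplasmic actin, had 1.05, 1.24 and 2.02. EEF1A1, which brings aminoacyl-tRNA to the ribosome, had 1.18, 1.37 and 1.84. In these 3 genes the treated value was the highest and the edited one lay between, closer to the parental value, with 5′ shifts in treated cells of 1.13, 0.95 and 0.64. EEF2 depth was 0.71 higher on the log2 scale in the 5′ window and 0.65 lower in the rest. The tubulins TUBA1B (1.37, 1.21 and 2.34) and TUBB (1.13, 1.19 and 1.68) and the glycolytic enzyme GAPDH (0.89, 0.99 and 1.23) were also highest after treatment. RPL3, a protein of the large ribosomal subunit, went the other way, with 1.12 in parental, 0.76 in edited and 0.97 in treated cells.

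Across gene lists the 5′ shift of treated cells was above 0 nearly everywhere. Of 16 lists with at least 10 genes above the minimum, all 16 had a median above 0, from 0.26 to 0.93, and 362 of their 399 members were above 0. The median over all genes was 0.61 and 79.6% of them were above 0, so most lists lay near the general level. Counts of members past 2-fold are to be read against the 27.0% higher and 4.60% lower over all genes. Most list members were deeply covered, and among all deeply covered genes 88.4% were above 0, 24.2% past 2-fold higher and 1.10% lower. The lists were chosen with results of these data known, and nothing here sets one apart from the rest.

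**Figure D4:**
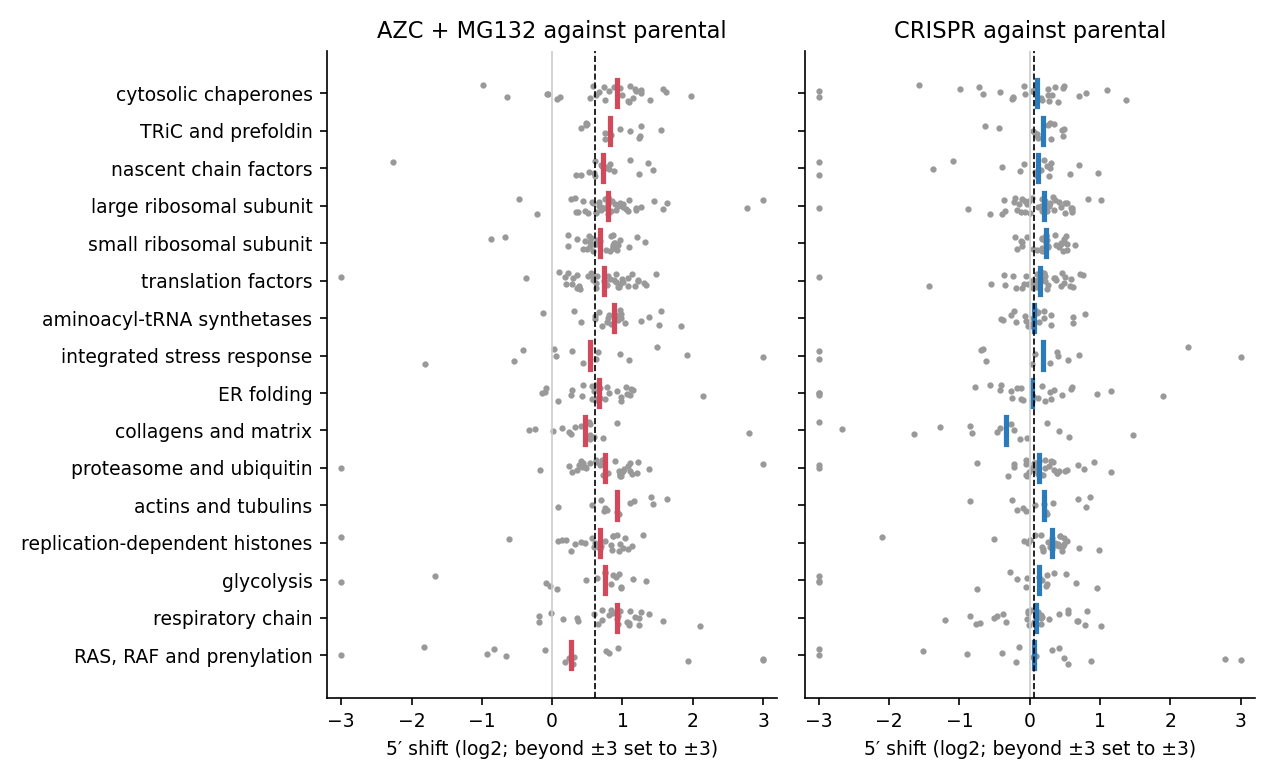
5′ shift on the log2 scale (horizontal axis, values beyond 3 in size set to 3) for each gene of 16 lists, AZC + MG132 against parental on the left and CRISPR against parental on the right. Points are genes, coloured bars are list medians, the dashed line is the median of all 7089 genes, 0.61 on the left and 0.06 on the right, and nearly all points on the left lie above 0.

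Cytosolic chaperones, which fold and hold proteins in the cytosol, had a median shift of 0.92 in treated cells, with 24 of 28 members above 0, 12 of them past 2-fold higher and 0 lower (27.0% and 4.60% of all genes). HSP90AB1, the constitutive HSP90, had 5′ shares of 0.34 in parental, 0.55 in edited and 1.33 in treated cells, a shift of 1.97. HSPA8, the constitutive HSP70, had 0.54, 0.72 and 1.15, a shift of 1.09. HSPA1A, the stress-inducible HSP70, had 0.78, 0.94 and 1.64, a shift of 1.08, and shares reads with its near copy HSPA1B. All 3 chaperones had their highest 5′ share in treated cells.

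Their coding bodies differed. Past the 5′ window, HSP90AB1 depth was lower by 0.20 on the log2 scale in treated cells, HSPA8 depth was 0.50 higher and HSPA1A depth 1.68 higher. HSPA1A was thus higher along its whole coding sequence, and 2.90 higher in the 5′ window. The co-chaperones STIP1, which links HSP70 to HSP90, and BAG3, an HSP70 exchange factor, stood at shifts of 1.18 and 1.26, and DNAJC2, a ribosome-bound co-chaperone, at 1.62. DNAJB1, which stimulates HSP70, kept nearly equal shares in the 3 tables, 0.84, 0.80 and 0.81. HSPH1, of the HSP110 family, stood at a shift of 0.10. The transcript used for HSP90AA1 held almost no depth in its 5′ window, with shares of 0.00089 in parental and 0.00057 in treated cells, so its shift is not interpreted.

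The TRiC chaperonin folds actin and tubulin, and prefoldin hands them over. All 14 members had a shift above 0 in treated cells, from 0.41 to 1.54, with a median of 0.83 and 5 past 2-fold higher. CCT8, a TRiC subunit, led with 5′ shares of 0.35, 0.48 and 1.03 (parental, edited, treated), and CCT6A, the subunit with the highest level, had 0.51, 0.53 and 0.85. Their clients, 13 actin and tubulin genes, were also all above 0, with a median of 0.92 and 5 past 2-fold higher, TUBB6 leading with 0.57, 0.93 and 1.78. Tubulin genes are close copies and can share reads.

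Factors that meet the chain as it leaves the ribosome, such as the nascent chain complex, methionine aminopeptidases and the signal recognition particle, had a median of 0.73, with 17 of 18 members above 0. SRP72, a signal recognition particle protein, had 5′ shares of 0.90, 1.0 and 2.43. NACA, a nascent chain complex subunit, had 1.04, 1.26 and 1.58. The NACA transcript used was not deeply covered, with 48 of 200 coding bins and 6 of 20 bins of the 5′ window covered in each table. Its shares thus describe a few bins only. The exception was ZNF598, a sensor of collided ribosomes, at -2.26, with a summed depth in the 5′ window of 288 bases in parental, 0 in edited and 28 in treated cells. It was not deeply covered, and its shift is not interpreted.

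The translation machinery itself followed the general level. Large subunit proteins had a median of 0.80, with 44 of 46 above 0 and 13 past 2-fold higher (27.0% of all genes), and small subunit proteins one of 0.69, with 31 of 33 above 0 and 3 past 2-fold higher. RPS18 had 5′ shares of 0.81, 1.13 and 2.02, and RPS6 had 0.89, 1.0 and 1.63. RPL41 (-0.47), RPL3 (-0.21), RPS24 (-0.87) and RPS27 (-0.67), named after their values were seen, were the members below 0. Several of these coding sequences are so short that the 5′ window spans less than a footprint, and neighbouring bins then share fragments.

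Translation factors had a median of 0.74, with 40 of 42 above 0 and 10 past 2-fold higher, near the 27.0% of all genes. ETF1, the release factor that reads stop codons, had 5′ shares of 0.70, 1.15 and 1.94. EIF5A, which helps ribosomes past runs of proline, was the 1 member past 2-fold lower, on a transcript whose 5′ window was nearly empty. Aminoacyl-tRNA synthetases and their scaffold proteins had a median of 0.88, with 21 of 22 above 0 and 6 past 2-fold higher. EPRS1, which charges both glutamate and proline onto their tRNAs, had 0.86, 0.88 and 1.55. CARS1, the cysteine enzyme, led with 0.26, 0.26 and 0.91, and AIMP1, a scaffold of the synthetase complex, had 0.50, 0.42 and 1.45. In CARS1 and AIMP1 the edited cells lay at or below the parental value, and only the treated cells stood higher.

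Proteasome and ubiquitin genes, whose products MG132 acts on or feeds into, had a median of 0.76, with 34 of 36 above 0, 10 past 2-fold higher and 1 lower, near the 27.0% and 4.60% of all genes. The extreme values of the list, PSMD8 and PSMC4, came from windows with at most 16 bases of depth in any table and are not interpreted. ER folding genes had a median of 0.67, with 25 of 28 above 0 and 6 past 2-fold higher. HSPA5, the HSP70 of the ER, was among those near 0, with 0.67, 0.69 and 0.71, although its depth in treated cells was 0.66 higher in the 5′ window and 0.58 higher in the rest. PPIB, an ER prolyl isomerase, had 0.59, 0.75 and 1.32. HSPA5 was thus higher in both the 5′ window and the rest of its coding sequence in treated cells, with nearly the same 5′ share.

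Respiratory chain genes had the highest median of the lists, 0.93, with 25 of 28 above 0 and 11 past 2-fold higher (27.0% of all genes). NDUFA9, a complex I subunit, had 0.45, 0.90 and 1.92, NDUFV2, another, had 0.55, 0.89 and 1.65, and ATP5F1B, the catalytic subunit of ATP synthase, had 0.71, 0.70 and 1.39. Glycolysis genes had a median of 0.76 with 13 of 17 above 0, 2 past 2-fold higher and 2 lower. LDHB, a lactate dehydrogenase subunit, had 1.35, 1.73 and 2.29. The lower pair, ALDOA and ENO2, had 5′ windows at 0 or under the floor of 84 bases (3 footprints) in the treated table. Replication-dependent histones had a median of 0.68 with 26 of 28 above 0, and H3C14 had 1.44, 1.94 and 2.62. Histone copies share reads, and their members are not separate values.

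Collagens and matrix genes, rich in proline for the collagens, had a median of 0.47 with 14 of 16 above 0 and 1 past 2-fold higher, FN1. The FN1 transcript used was not deeply covered. Its 5′ window held 111 bases in parental and 370 in treated cells, in 3 covered bins each, so its shift is not interpreted. PLOD2, a collagen lysyl hydroxylase and the member with the highest level, had 5′ shares of 0.76, 0.90 and 1.44. RAS, RAF and prenylation genes had the lowest median, 0.26, with 10 of 16 above 0, and 7 of the 16 were deeply covered. BRAF, a kinase downstream of RAS, had 0.14, 1.38 and 1.56, from a 5′ window of 58 bases in parental cells, which is under the floor. NRAS had 1.21, 1.77 and 1.48. Shifts in this list ranged from -7.32 to 3.52. The lowest was that of MAPK3, with 232 bases in parental and 0 in treated cells, and the highest that of BRAF. Neither size is interpreted.

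Integrated stress response genes had a median of 0.53, with 11 of 14 above 0, 4 past 2-fold higher (CEBPG among them with 0 parental bases) and 1 lower, ATF4. PSAT1, an enzyme of serine synthesis, had 5′ shares of 0.33, 0.54 and 1.24, and ASNS, asparagine synthetase, had 1.05, 1.54 and 2.23. ATF4, the transcription factor that turns these genes on, had 4.91, 5.0 and 1.41. Its 5′ window carried a normalised depth (per 1000000 of the table total) of 16.5 in parental, 25.9 in edited and 97.4 in treated cells, and its remaining coding bins 17.1, 25.9 and 595. In treated cells the 5′ window of ATF4 was thus higher by 2.57 on the log2 scale and the rest by 5.12, so that its 5′ share was lower while its depth was higher throughout. ATF4 has upstream reading frames, 1 of which overlaps its start, and bins do not separate reading frames.

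Among single genes, the largest ratios by size alone were mostly of windows empty in at least 1 table. The 10 largest rises among deeply covered genes all had a parental depth of 0, and of the 10 largest falls 7 had 0 and 3 at most 84 bases in the treated table. For these no fold is given, since 84 bases is no more than 1 pile of median height in parental or treated cells. PREPL, a serine peptidase-like protein, had 0 bases in parental and 394 in treated cells, and TOR1AIP1, a nuclear membrane protein, had 0 and 250. A second ranking was therefore made after these values were seen. It used the 2859 deeply covered genes with at least 10 of 20 bins covered and over 84 bases of depth in the 5′ window of each table. In a short coding sequence 1 pile can cover 10 bins, and 1 pile of median height in edited cells exceeds 84 bases. The limits thus do not secure several distinct fragments per window. Of the 2859 genes 89.2% had a shift above 0, 660 (23.1%) were past 2-fold higher and 13 (0.455%) lower. The set requires depth in the parental and treated windows themselves, which leaves out the largest rises and falls by construction. Its counts are therefore not comparable with those over all deeply covered genes.

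In that ranking the largest rise was that of FIS1, an outer membrane protein of mitochondrial fission, with 5′ shares of 0.091 in parental, 0.65 in edited and 1.43 in treated cells, a shift of 3.97 from a parental depth of 115 bases. SUCLG1, a subunit of succinyl-CoA ligase, had 0.13, 0.60 and 1.57, and MRPS16, of the small mitochondrial ribosomal subunit, had 0.12, 0.36 and 1.10. In all 3 the parental table was far below 1 and the treated table above it. RDH11, a retinol dehydrogenase, had 0.14, 0.37 and 1.22, SEC23IP, a partner of the COPII coat, had 0.22, 1.32 and 1.73, and TIMM44, which tethers the import motor of the mitochondrial inner membrane, had 0.25, 0.76 and 1.52. The other 4 of the top 10 were ARFGAP2, SLC27A3, RIOK2 and LAP3, at shifts of 2.86, 2.69, 2.63 and 2.47. All 10 had a parental share below 0.4, and in all 10 the rest of the coding sequence was lower in treated cells per table total, by 0.06 to 0.67 on the log2 scale; over all genes 27.0% had it higher. On that scale the rest had a median of -0.25 over all genes and -0.24 over deeply covered genes. ARFGAP2 (-0.06), SUCLG1 (-0.13) and FIS1 (-0.23) lay above both medians, and the others of the top 10 below. Genes ranked by a ratio to 1 parental table will include those with a low parental value by counting error, and how much of these ratios that error makes was not tested.

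**Figure D5:**
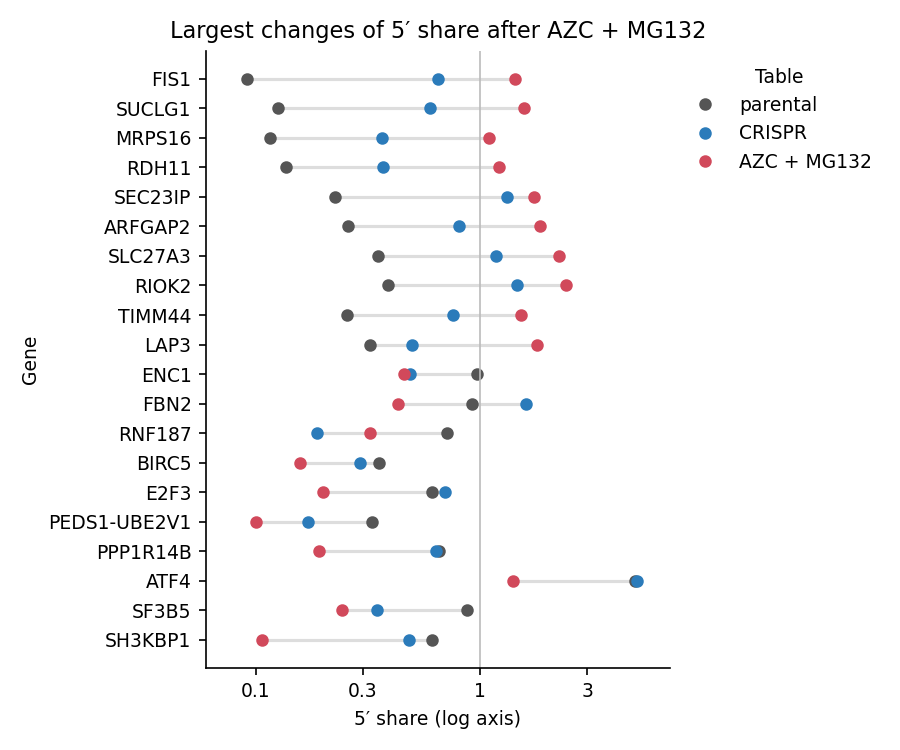
5′ share (horizontal log axis) in each of the 3 tables for the 10 largest rises and 10 largest falls after treatment among 2859 genes with well-covered windows; the line at 1 marks even depth. The 10 upper genes start below 0.4 in the parental table, and ATF4 alone among the lower genes stays above 1 in all 3 tables.

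The 10 largest falls were led by SH3KBP1, an adaptor of receptor endocytosis, with 0.61, 0.48 and 0.11 and a shift of -2.53. SF3B5, a small protein of the spliceosome's U2 particle, had 0.88, 0.35 and 0.24. ATF4 stood at -1.80. PPP1R14B, an inhibitor of protein phosphatase 1, had 0.65, 0.63 and 0.19, E2F3, a cell cycle transcription factor, had 0.61, 0.70 and 0.20, and BIRC5 (survivin), a mitotic and anti-apoptotic protein, had 0.35, 0.29 and 0.16. In these 5 genes other than ATF4 the 5′ window was lower by 1.3 to 2.61 on the log2 scale and the rest of the coding sequence within 0.47 of the parental level. The remaining 4 were PEDS1-UBE2V1 (-1.72), RNF187 (-1.14), FBN2 (-1.09) and ENC1 (-1.08). PEDS1-UBE2V1 is a readthrough transcript that shares reads with UBE2V1.

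The same comparison was made between edited and parental cells. Its median 5′ shift was 0.06 (interquartile range -0.51 to 0.54) and 53.6% of genes were above 0. Past 2-fold, 839 genes (11.8%) had a higher and 1102 (15.5%) a lower share. Among deeply covered genes the median was 0.10, with 168 (5.29%) higher and 220 (6.93%) lower, and over the 2859 genes with well-covered windows it was 0.14, with 147 (5.14%) higher and 112 (3.92%) lower. Lower genes outnumbered higher ones over all genes and over deeply covered genes. The last set requires depth in the edited window itself, which leaves out the largest falls by construction, so its balance is not comparable with the others. Both comparisons use the same parental table, so a low or high parental value enters both.

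By position the ratio of edited to parental cells was highest at the start. The ratio of mean scaled depth was 1.08 in the 5′ window and between 0.98 and 1.01 in the other 9 windows of 20 bins. In codons it was 1.13 in codons 1 to 20, 1.01 in codons 21 to 40, 0.94 in codons 41 to 60 and in codons 61 to 80, and 0.97 to 1.0 beyond. Only 45.9% of the 1960 genes were higher in codons 1 to 20, so the ratio of means rested on fewer genes with larger values. The 5′ window and the rest of the coding sequence had median log2 ratios of 0.03 and -0.03, or 0.05 and -0.02 when scaled to the median gene. In the 168 deeply covered genes with a higher share the 2 values were 1.28 and -0.19, and in the 220 with a lower share -1.64 and 0.00.

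Gene lists in the edited line had medians between -0.34 and 0.31, with 15 of 16 above 0 and 260 of 399 members above 0. Past 2-fold, 11.8% of all genes were higher and 15.5% lower, and in the highest quartile of coding level 2.31% and 4.12%. Replication-dependent histones were at 0.31, with 24 of 28 above 0, 0 past 2-fold higher and 1 lower. Small subunit ribosomal proteins were at 0.24, with 27 of 33 above 0 and 0 past 2-fold in either direction, and large subunit proteins at 0.20, with 30 of 46 above 0. Collagens and matrix genes were the list with a median below 0, -0.34, with 4 of 16 above 0, 4 past 2-fold lower and 1 higher, beside 53.6%, 15.5% and 11.8% of all genes. In that list LAMC1, a laminin chain, had 5′ shares of 0.79 in parental, 0.12 in edited and 0.67 in treated cells, and COL6A1, a collagen VI chain, stood at a shift of 1.47. The other lists lay between 0.04 and 0.20.

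Among well-covered windows the largest rises in the edited line were those of FIS1 (2.83), FAF1 (2.63), SEC23IP (2.56), AP1S1 (2.44), NME1 (2.34) and SUCLG1 (2.24). FAF1, a ubiquitin-binding protein of the p97 pathway, had 5′ shares of 0.26 in parental, 1.6 in edited and 1.01 in treated cells. AP1S1, a subunit of the AP-1 clathrin adaptor, had 0.31, 1.68 and 1.12. GOT1, the cytosolic aspartate aminotransferase, had 0.60, 2.31 and 1.87. In these genes the edited and the treated table were both above the parental one. NME1, a nucleoside diphosphate kinase, had 0.014, 0.069 and 0.020 on the transcript used, so its 5′ share was low in all 3 tables.

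Of the largest falls, RPL36AL, a near copy of the ribosomal protein gene RPL36A, had 0.39 in parental, 0.037 in edited and 0.54 in treated cells, a shift of -3.40. SPCS2, of the signal peptidase complex, had 0.25, 0.035 and 0.40, and TMED4, a cargo receptor of the early secretory pathway, had 0.61, 0.13 and 0.86. CDC7, a kinase that fires replication origins, had 1.09, 0.20 and 1.24, and RBM34 had 2.12, 0.52 and 3.39. SMN1 and SMN2, which share their reads and count as 1 value, had 1.18, 0.24 and 1.31. In these genes the edited value was the lowest of the 3 and the treated value the highest. DDRGK1 (1.13, 0.23 and 0.65) and ADPGK (1.07, 0.22 and 0.52) had treated values between the edited and the parental one. The edited 5′ windows of these genes held little depth, from 191 bases in RPL36AL, 250 in SPCS2 and 332 in TMED4 up to 793 in RBM34. With edited piles of a median 8 copies and 28 bases, these falls rest on few distinct fragments and their size is uncertain.

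A further group of windows was empty in the edited table. Of the 1102 genes past 2-fold lower there, 263 had 0 depth in its 5′ window and 109 from 1 to 84 bases, together 33.8%. Of the 326 genes past 2-fold lower in treated cells 44.5% had at most 84 bases in the treated 5′ window, so empty or nearly empty windows were a large part of the falls in both comparisons. Of the genes past 2-fold higher in treated cells, 9.60% had at most 84 bases in the parental window. EIF4E2, a cap-binding homologue, had 666 bases of depth in parental, 0 in edited and 529 in treated cells. ICMT, the methyltransferase that ends prenyl processing, had 632, 0 and 255, and PABPN1, the nuclear poly(A)-binding protein, had 704 bases in parental and 0 in edited cells. No fold is given for these windows, since a single pile of median height in edited cells holds more than 84 bases. Piles were 8 copies high in edited cells against 3, so equal depth there held fewer distinct fragments, and the part of this in the empty windows was not tested. Among deeply covered genes 11 were at 0 in edited cells and above 84 bases in the other tables, 2 were so in parental and 0 in treated cells.

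How widely shifts scattered followed the level of the gene. From the lowest to the highest quartile of coding level, the interquartile width of the shift fell from 1.43 to 0.58 in treated cells and from 1.96 to 0.58 in the edited line. The medians were 0.56, 0.52, 0.61 and 0.66 in treated cells and -0.04, 0.05, 0.07 and 0.11 in the edited line. In the highest quartile 20.6% of genes were past 2-fold higher and 0.959% lower in treated cells, and 2.31% and 4.12% in the edited line. At low level the width of the edited line exceeded its median many times over, so a single gene there carries little information.

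Some windows were silent throughout. In 31 deeply covered genes the 5′ window had at most 84 bases in all 3 tables. For 10 of them another transcript of the gene was in the tables, and for 7 that transcript was above 84 bases in all 3. EIF5A is an example: the transcript with the highest level (NM_001143760) had 19, 0 and 0 bases, while NM_001970 had 37371, 70005 and 41646 and 5′ shares of 1.91, 2.71 and 2.36. TMBIM6, TXNRD1, ABLIM1, EBNA1BP2 and GAS7 had such a second transcript as well. The annotated start, rather than the gene, was thus without footprints in those 7. Of the 21 with a single transcript, 6 were members of the near-identical PPIAL4 family, and COL18A1, a collagen, had 0 depth at its annotated start in all 3 tables with a mean normalised coding depth of 529.7 per 1000000. TPT1 and KHDRBS1, both abundant, also had at most 27 bases.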

How the data were processed

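Ribosome footprints were measured in 6 libraries, 2 per group. The authors deposited 1 table per group with 400 bins per transcript, of which 101 to 300 were read as coding; the deposited values are on a log2 scale, log2(x + 1), with x the summed base depth of a bin. Per the submitters' processing notes, Bowtie2, TopHat2 and the build hg19 were used, without versions; how libraries were joined is not stated. The tables hold no coordinates, and names came from RefSeq. In coding bins the deposited value of the row above had been added to x. It was subtracted, which made 100% of low bins whole, and had made up 4.31%, 3.07% and 3.82% of depth in the 5′ window (parental, CRISPR, AZC + MG132). Ratios used a pseudocount of 0.5 on summed depth. The minimum was the lower quartile of coding sums, 2567, 2926.5 and 1909. Coding length was 200 times the summed pile length over the summed number of bins spanned, each less 1, from at least 5 piles.

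Genes named are the 10 largest rises and falls per comparison among deeply covered genes, per list the 2 largest shifts of treated cells and the gene of highest level, beside 10 fixed genes; all other genes given with values, those of the ranking of well-covered windows among them, were chosen after their values were seen. 1 gene named by the rule is not reported here. The regions and the 20 lists were chosen with earlier results of these data known. Features of protein sequence were not used here. Calculations used Python 3.11.15 and NumPy 2.4.6, and were tested on simulated data. With 1 table per group no test between groups and no replicate was available. Alternatives changed the window, minimum, pseudocount, scaling, transcript and denominator.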

Additional observations from a re-analysis of the deposited data

How the results depend on the processing

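The median shift kept its sign in every alternative, save the CRISPR shift over the first 50 codons (estimated length), which was -0.011. The median share kept its side of 1 save that of CRISPR with at least 10 of 20 opening bins covered, 1.12. The values below are from other settings than those reported. As deposited, the AZC + MG132 share was 1.38, its shift 0.57 and the 2-fold lower genes 2.43%. Over every transcript the shares were 0.94 (parental) and 0.97 (CRISPR) and the AZC + MG132 shift 0.57. With no minimum the CRISPR and AZC + MG132 shares were 0.91 and 1.39, the shifts 0.033 and 0.58, and genes lower in AZC + MG132 8.45%. With a minimum 4 times higher the shares were 0.97 and 1.45, the shifts 0.10 and 0.65, genes lower in AZC + MG132 1.31%, and in CRISPR 5.38% were higher and 7.12% lower. With a pseudocount of 30 the shares were 0.95 (parental), 0.97 (CRISPR) and 1.45 (AZC + MG132). Bins 1 to 10 gave shares of 0.90 (parental) and 1.5 (AZC + MG132), a shift of 0.70, 8.14% lower in AZC + MG132 and 17.9% higher in CRISPR. Bins 3 to 20 gave shares of 0.89, 0.90 and 1.34 and an AZC + MG132 shift of 0.58. With the last 180 coding bins as denominator that share was 1.48 and that shift 0.70. At least 100 covered coding bins gave a parental share of 0.90, shifts of 0.63 (AZC + MG132) and 0.084 (CRISPR), and 3.05% lower in AZC + MG132. The median log2 ratios of the 5′ window and the rest scaled to the median gene were 0.60 and -0.091 in AZC + MG132, and in CRISPR the rest was at -0.016.

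These alternatives were chosen after seeing the data. Over the first 50 codons the AZC + MG132 share was 1.46 with 8.96% of genes lower, and in CRISPR 18.5% were higher and 24.7% lower. The transcript with the most covered opening bins gave shares of 0.95, 0.98 and 1.45. With at least 10 of 20 opening bins covered the shares were 0.99, 1.12 and 1.56, the shifts 0.63 (AZC + MG132) and 0.18 (CRISPR), and 1.51% were lower in AZC + MG132 and 5.30% in CRISPR. A mean of log2(depth + 1) gave shifts of 0.76 and 0.14. The cause of these differences was not tested.

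Of 358 values for single genes, 330 kept their sign and their side of the 2-fold limit, though often not their size, 17 crossed that limit and 11 changed sign. Those 11 were in 8 genes whose 5′ window had at most 84 bases in at least 1 of the tables compared. Settings that only chose which genes or transcripts were kept (minimum, covered bins, transcript) repeated the main value of a gene. These repeats count among the 330 and say nothing about how stable a value is. As deposited the AZC + MG132 shifts were 0.067 for EIF5A, 0.14 for GLUD2, 0.25 for PSMC4 and 0.082 for ST13. With a pseudocount of 30 PSMC4 was at 0.10. In bins 1 to 10 GLUD2 was at 0.85 and PSMC4 at 0.44 in AZC + MG132, and in CRISPR CLPTM1 was at 0.37, MTX1 at -0.068, PBK at -0.49 and SCAND1 at -0.16. The first 50 codons from protein length were not run. No paired analysis was possible because the tables hold no columns for single samples. With 1 table per group, depth sets how far a gene can be read but replicate error is unknown.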
